A study of Mus musculus with 12 samples.

Results

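Thyroid hormone signalling in brown adipose tissue (BAT) was described through 6 of the 25124 genes measured by RNA-seq, chosen by symbol for their roles in the pathway: the deiodinase *Dio2*, the hormone transporter *Slc16a10*, the receptors *Thra* and *Thrb*, and the hormone-responsive genes *Thrsp* and *Klf9*. The thyroid gland releases mainly thyroxine, a precursor with little activity of its own, and the DIO2 enzyme inside brown adipocytes converts it to triiodothyronine, the form that binds the receptors with high affinity. Cold raises *Dio2* transcription through sympathetic nerves and cyclic AMP, and the hormone made in the cell acts with adrenergic signals on genes of heat production such as *Ucp1*, which encodes the uncoupling protein of brown fat mitochondria. The receptors sit on DNA together with retinoid X receptors and regulate genes of fat synthesis and energy use.

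Interscapular BAT came from male mice at 10 weeks of age that were wild type (WT) or lacked *Txnip*, the gene of the thioredoxin-interacting protein, in the whole body (*Txnip*-/-, on a C57B/6J background). The mice spent 1 week at 23 °C (room temperature, RT) or 30 °C (thermoneutrality, TN), which gave 4 groups of 3 libraries, WT and *Txnip*-/- at RT and WT and *Txnip*-/- at TN. Levels are given in TPM, a measure of transcript abundance that corrects for transcript length and library size. The labels do not say that each library came from a mouse of its own, so the p-values measure only the spread between libraries. The gene was absent from every tissue, and what its loss did in BAT and elsewhere cannot be told apart. In bulk tissue, fewer cells of a type and less RNA per cell cannot be told apart either, nor can temperature and any batch that separated the RT from the TN libraries.

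The libraries held between 29.9 and 47.4 M reads. As a check of the labels, *Txnip* averaged 613 ± 70.8 TPM at RT in WT (SD, n = 3) against 29.0 ± 5.59 TPM in RT *Txnip*-/-, and at TN it averaged 1131 ± 92.7 TPM in WT against 11.98 ± 2.12 TPM in *Txnip*-/-. The 7 brown adipocyte markers summed to between 11360 and 11972 TPM in the RT WT libraries, 8579 and 10774 TPM in RT *Txnip*-/-, 6808 and 7725 TPM in TN WT, and between 3723 and 4405 TPM in those of TN *Txnip*-/-. In WT mice *Ucp1* averaged 3982 TPM at RT and 814 TPM at TN, and *Cox8b*, *Cox7a1* and *Elovl3* were lower at TN too. *Cidea* averaged 2578 and 2485 TPM, *Prdm16* 9.09 and 8.02 TPM and *Ppara* 113 and 143 TPM, so the sum does not stand for each marker. The 4 general adipocyte markers summed to between 18441.4 and 19114.5 TPM in RT WT and between 15073.6 and 16481.6 TPM in TN WT. The thyroid follicle markers *Tg* and *Nkx2-1* summed to at most 0.179 TPM in any library.

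The promoters of *Dio2*, *Slc16a10* and *Thrsp* are shown because these were the 3 of the 6 genes that differed between genotypes at TN, a choice made after their values were seen. Each sequence is the 250 bases before the start of the gene, from RefSeq on GRCm38.p6, read 5′ to 3′ on the strand of the gene. Capitals mark the cyclic AMP response element in *Dio2* and the CCAAT box, a common promoter element, on either strand in the others.

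Dio2, chr12:90739039-90739288, minus strand: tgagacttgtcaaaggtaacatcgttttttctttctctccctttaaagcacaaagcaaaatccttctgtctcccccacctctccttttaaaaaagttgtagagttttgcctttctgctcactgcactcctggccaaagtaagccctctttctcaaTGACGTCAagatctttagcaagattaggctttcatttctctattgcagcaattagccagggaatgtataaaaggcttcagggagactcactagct

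Slc16a10, chr10:40142255-40142504, minus strand: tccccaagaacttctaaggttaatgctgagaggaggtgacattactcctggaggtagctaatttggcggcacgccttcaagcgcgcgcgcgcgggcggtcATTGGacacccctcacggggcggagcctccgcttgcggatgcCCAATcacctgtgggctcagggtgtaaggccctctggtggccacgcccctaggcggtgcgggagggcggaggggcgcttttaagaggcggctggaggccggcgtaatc

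Thrsp, chr7:97417551-97417800, minus strand: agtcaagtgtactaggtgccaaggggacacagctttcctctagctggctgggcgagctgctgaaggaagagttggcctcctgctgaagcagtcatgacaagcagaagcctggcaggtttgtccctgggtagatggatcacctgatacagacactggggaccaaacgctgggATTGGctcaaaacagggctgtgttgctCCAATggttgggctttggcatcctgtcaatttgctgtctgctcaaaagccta

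The whole cyclic AMP response element, TGACGTCA, stood between 95 and 88 bases before the start of *Dio2*, and 1.55% of 32851 mouse promoters of this length held it. It reads the same on both strands and so also holds the short form, TGACG, once on each strand. The short form alone stood between 46 and 42 bases before the start of *Klf9* and between 56 and 52 bases before the start of *Thrb* at its upstream promoter, and it was in 17.8% of promoters when both strands were searched. The CCAAT box was on each strand of the *Slc16a10* and the *Thrsp* window and 3 times in that of *Klf9*, and 33.8% of promoters held it at least once. The letters AGGTCA, which thyroid hormone receptors read as a half-site, were in 14% of promoters and, of the 5 genes with a sequence, in *Thrb* only, between 184 and 179 bases before the start at the upstream promoter. *Thrb* had a further promoter in the table, which held the E-box CACGTG, as did 6.02% of promoters. A direct repeat of the half-site with 4 bases between, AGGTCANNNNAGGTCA, was in 5 promoters (0.0152%) and in none of these genes. These matches describe the windows and do not show binding, and *Thra* had no sequence in the table.

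Expression was compared with limma on log2(TPM + 1), and a gene was called when its adjusted p was under 0.05 and it had risen by more than 25% or fallen by more than 20%. All 6 genes passed the filter of a mean of at least 1 TPM in every comparison. Between genotypes at RT, 0 of the 6 genes were called, where 1.49% of 11980 tested genes were, although *Dio2* and *Thrsp* had an unadjusted limma p under 0.05 (0.0219 and 0.0111). At TN, 3 of the 6 were called, *Dio2* and *Slc16a10* lower and *Thrsp* higher in *Txnip*-/- mice, where 8.66% of 12891 tested genes were called. The libraries of the 2 genotypes did not overlap for 2 of the 6 genes at RT, *Dio2* and *Thrsp*, against 22.6% of all tested genes, and for 3 of the 6 at TN against 31.1%.

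Between temperatures, 3 of the 6 genes were called in WT mice, *Dio2* and *Thrsp* lower and *Thra* higher at TN, where 37.8% of 12486 tested genes were called. In *Txnip*-/- mice 4 of the 6 were called, *Dio2*, *Slc16a10* and *Klf9* lower and *Thra* higher at TN, where 39.2% of tested genes were called, so both counts have to be read against a background in which such calls were common. The RT and TN libraries did not overlap for 3 of the 6 genes in each genotype, *Dio2*, *Thra* and *Thrsp*, against 57.5% of tested genes in WT and 61.1% in *Txnip*-/- mice. The median difference of all tested genes between TN and RT was 0.18 in WT and 0.15 in *Txnip*-/- mice on the log2(TPM + 1) scale, and 83.1% and 78.9% of the called genes were higher at TN. After each library was centred on its median these shares were 51.1% and 48.5%, so temperature differences of the members are also given relative to the median gene. The genotype difference itself differed between temperatures for 0 of the 6 genes, none of which had an unadjusted limma p under 0.05, where 0.00801% of tested genes, which is *Txnip* alone, were called.

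**Figure D1:**
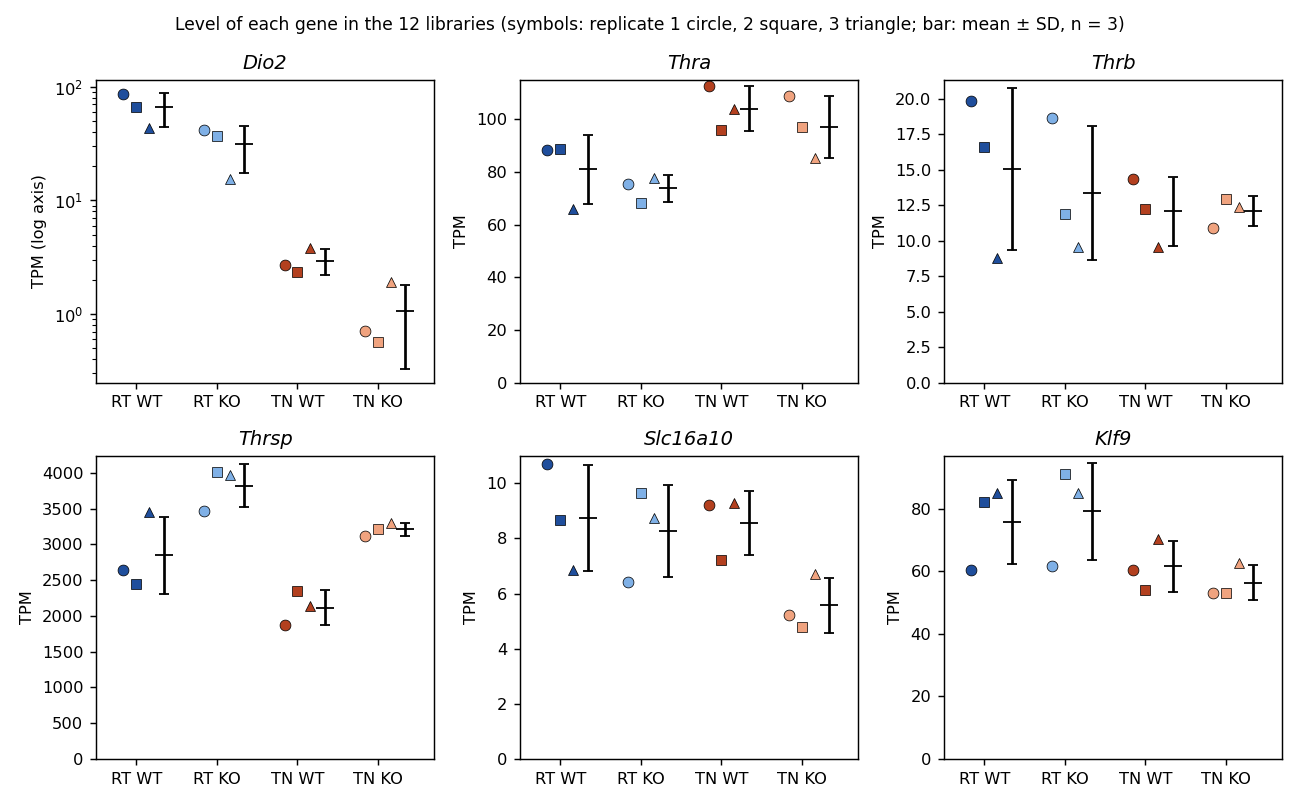
Level of each of the 6 genes in TPM (vertical axes, logarithmic for Dio2 and starting at 0 for the others) in the 12 libraries by group (horizontal axes; KO stands for Txnip-/-), with the mean ± SD of 3 libraries beside the points. Dio2 lay between 15.4 and 86.8 TPM at RT and between 0.571 and 3.81 TPM at TN, whereas the levels of Thrb overlapped in all 4 groups.

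*Dio2* (NM_010050; mm10 chr12:90724552-90739038, minus strand), which makes the active hormone inside the cell, had the largest fall at TN of all 12486 tested genes in both genotypes. The WT libraries held 86.8, 66.9 and 43.8 TPM at RT and 2.71, 2.35 and 3.81 TPM at TN. The *Txnip*-/- libraries held 41.7, 36.6 and 15.4 TPM at RT and 0.710, 0.571 and 1.90 TPM at TN. The groups thus followed a descending order, first WT and then *Txnip*-/- at RT, then WT and last *Txnip*-/- at TN, and no library overlapped with those of a neighbouring group. The mean fell from 65.8 ± 21.5 to 2.96 ± 0.758 TPM in WT mice (SD, n = 3), a 22.3-fold difference, with a log2 difference of −4.04 (SE 0.36, limma adjusted p = 4.15e-05). In *Txnip*-/- mice it fell from 31.2 ± 13.9 to 1.06 ± 0.732 TPM, a 29.4-fold difference, with a log2 difference of −3.91 (SE 0.36, limma adjusted p = 1.66e-05). The next largest falls were those of *Noct* in WT mice (−4.01), a gene known for its daily rhythm, and of *Ucp1* in *Txnip*-/- mice (−3.64). With log2(TPM + 0.1) *Dio2* ranked 3 among the falls in WT mice and still 1 in *Txnip*-/- mice, and it ranked 1 in both under upper-quartile scaling, median centring and the test of all genes with a TPM above 0.

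Between genotypes, every *Txnip*-/- library held less *Dio2* than every WT library of the same temperature. At RT the mean was 2.11-fold lower in *Txnip*-/- mice, and the log2 difference of −1.11 (SE 0.38, limma adjusted p = 0.219) did not pass the test. At TN the mean was 2.79-fold lower, and the log2 difference of −0.98 (SE 0.24, limma adjusted p = 0.0445) passed it narrowly; the added 1 TPM makes it smaller than the ratio of the means. Only 31 of 11980 genes had a lower value than *Dio2* in the comparison at RT, and 38 of 12891 at TN. The exact permutation test of 3 against 3 libraries gave p = 0.1 at each temperature (two-sided), the smallest that this design allows. The call at TN was lost without TN WT library 1, 2 or 3 and without TN *Txnip*-/- library 1 or 2, in 5 of 6 fits, with limma adjusted p from 0.0674 to 0.139 and log2 differences from −1.09 to −0.81. It was also lost with log2(TPM + 0.1) (limma adjusted p = 0.0545), when all genes with a TPM above 0 were tested (0.105) and in 1 fit of all 12 libraries (0.106). The genotype difference at TN less that at RT was 0.13, with a 95% interval from −0.98 to 1.24 (limma adjusted p = 0.934), which leaves room for a change as large as either difference.

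The RT libraries numbered 3 had the lowest *Dio2* of their genotype, and they also had the lowest *Thrb* and the highest *Nr1d1*, a clock gene that codes for the receptor REV-ERBα. *Nr1d1* stood at 66.3, 82.8 and 109 TPM in the RT WT libraries and at 62.3, 94.9 and 107 TPM in RT *Txnip*-/-. In both genotypes the RT library with the lowest *Nr1d1* thus had the highest *Dio2*. At TN this held in *Txnip*-/- mice but not in WT, where the library with the lowest *Nr1d1* (136 TPM) had the lowest *Dio2* (2.35 TPM). The part of this spread in the result was not tested. Without 1 library the genotype difference in *Dio2* at RT lay between −1.38 and −0.69, the latter without RT *Txnip*-/- library 3 (limma adjusted p = 0.375), and it was called in none of these 6 fits. Without both libraries numbered 3, a comparison added after the data were seen, it was −0.95 (limma adjusted p = 0.0996). At TN *Nr1d1* averaged 141 ± 6.71 TPM in WT, against 107 ± 4.18 TPM in *Txnip*-/- mice (SD, n = 3), a log2 difference of −0.40 (limma adjusted p = 0.0123).

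**Figure D2:**
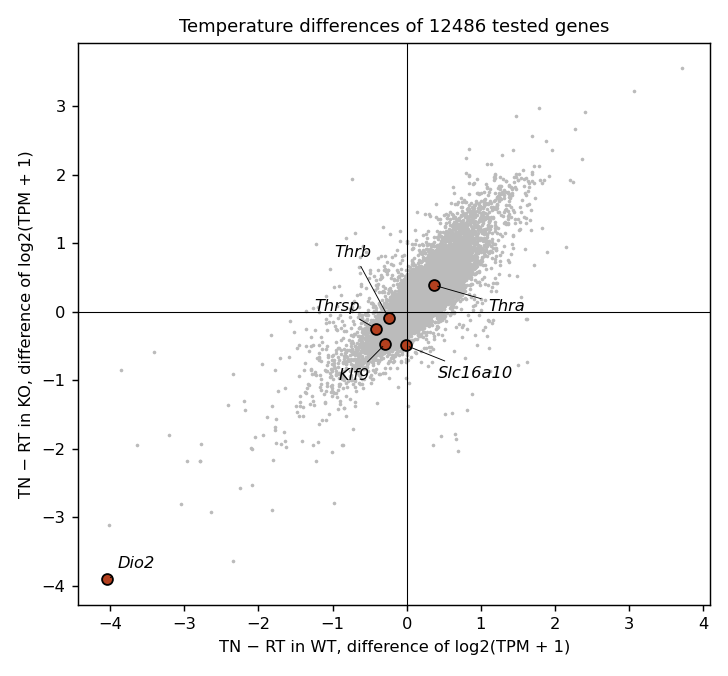
Difference between TN and RT in log2(TPM + 1) for the 12486 tested genes (grey points), in WT mice on the horizontal axis and in Txnip-/- mice (KO) on the vertical axis, with the 6 genes in red. Dio2 lies at the lower end in both genotypes, at −4.04 and −3.91, and the other 5 genes lie between −0.49 and 0.39; each axis uses its own libraries.

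*Slc16a10* (NM_001114332; mm10 chr10:40033535-40142254, minus strand) encodes a membrane transporter of aromatic amino acids that also carries thyroid hormone. It was lower in *Txnip*-/- than in WT mice at TN. Its levels were 10.7, 8.67 and 6.85 TPM in RT WT, 6.43, 9.65 and 8.74 TPM in RT *Txnip*-/-, and 9.21, 7.22 and 9.28 TPM in TN WT. In the TN *Txnip*-/- libraries they were 5.23, 4.79 and 6.70 TPM. The TN *Txnip*-/- libraries lay below all TN WT libraries, while the 3 other groups overlapped with each other. The mean at TN was 1.54-fold lower in *Txnip*-/- mice, with a log2 difference of −0.54 (SE 0.13, limma adjusted p = 0.0427). This call was lost without TN WT library 1 or 3 or TN *Txnip*-/- library 1 or 2 (limma adjusted p from 0.112 to 0.134), when all genes with a TPM above 0 were tested (0.101) and in 1 fit of all 12 libraries (0.0648). Within *Txnip*-/- mice it was lower at TN than at RT, with a difference of −0.49 (limma adjusted p = 0.0326), or −0.64 relative to the median gene, and this call was lost without library 2 or 3 of RT or library 1 or 2 of TN *Txnip*-/- (limma adjusted p from 0.0891 to 0.127) and when all genes with a TPM above 0 were tested (0.0561). In WT mice the difference was −0.01 (limma adjusted p = 0.957). The genotype differences at the 2 temperatures differed by −0.48, with a 95% interval from −1.01 to 0.06 (limma adjusted p = 0.442), so they were not shown to differ.

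*Thra* (NM_001313983; mm10 chr11:98741785-98769006, plus strand), the main thyroid hormone receptor gene of most tissues, was higher at TN in both genotypes. Its levels were 88.5, 88.9 and 65.8 TPM in RT WT and 113, 95.8 and 104 TPM in TN WT. In *Txnip*-/- mice they were 75.4, 68.2 and 77.8 TPM at RT and 109, 97.3 and 85.3 TPM at TN. All TN libraries of a genotype lay above all its RT libraries, whereas the genotypes overlapped at each temperature. The difference was 0.37 in WT (SE 0.12, limma adjusted p = 0.0254) and 0.39 in *Txnip*-/- mice (SE 0.12, limma adjusted p = 0.019). Relative to the median gene it was 0.18 and 0.24, and neither call held under upper-quartile scaling (0.27 and 0.31) or median centring (0.18 and 0.20). The call in WT was also lost without RT WT library 3, where the difference was 0.23, or TN WT library 1 or 3, and that in *Txnip*-/- without RT library 2 or TN library 1 of that genotype. The gene makes isoforms that bind the hormone and isoforms that do not, which 1 value per gene does not separate. It shares 263 of its 4614 annotated exon bases, or 5.7%, with *Nr1d1* on the opposite strand. The counted transcript is 2466 bases long, so its own share may differ. Whether the counting used the strand is not given in the sources used here, so reads of the 2 genes cannot be told apart there. *Nr1d1* was also higher at TN, by 0.73 in WT (limma adjusted p = 0.00766) and by 0.31 in *Txnip*-/- mice (limma adjusted p = 0.188). The part of *Nr1d1* reads in the difference of *Thra* was not tested.

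*Thrb* (NM_001113417; mm10 chr14:17660960-18038088, plus strand), the other receptor gene, was lower in level than *Thra* in every library, on the TPM scale, and passed no test. It held 19.8, 16.6 and 8.77 TPM in RT WT and 18.6, 11.9 and 9.58 TPM in RT *Txnip*-/-. At TN it held 14.4, 12.2 and 9.58 TPM in WT, against 10.9, 12.9 and 12.4 TPM in *Txnip*-/- mice. All 4 groups overlapped, and the spread at RT was up to 2.26-fold within WT. The log2 differences between genotypes were −0.14 at RT, with a 95% interval from −0.89 to 0.61, and 0.01 at TN, with an interval from −0.30 to 0.33.

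*Thrsp* (NM_009381; mm10 chr7:97412933-97417550, minus strand) encodes Spot 14, a nuclear protein of fat synthesis named for its response to thyroid hormone. It was the most abundant of the 6 genes, and it was higher in *Txnip*-/- mice at TN and lower at TN than at RT in WT mice. The libraries held 2644, 2440 and 3446 TPM in RT WT and 3470, 4014 and 3970 TPM in RT *Txnip*-/-. At TN they held 1865, 2342 and 2140 TPM in WT, against 3118, 3219 and 3292 TPM in *Txnip*-/- mice. The genotypes did not overlap at either temperature, although RT WT library 3 lay close under the lowest RT *Txnip*-/- library. At TN the mean was 1.52-fold higher in *Txnip*-/- mice, with a log2 difference of 0.61 (SE 0.10, limma adjusted p = 0.0123), and this call held without any 1 of the 6 libraries (limma adjusted p from 0.0192 to 0.0493). It was lost when all genes with a TPM above 0 were tested (limma adjusted p = 0.0985). At RT the log2 difference of 0.44 (SE 0.13, limma adjusted p = 0.167) did not pass, and it passed only without RT WT library 3 (0.58, limma adjusted p = 0.0351).

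Between temperatures, the log2 difference of *Thrsp* at TN was −0.42 in WT (SE 0.12, limma adjusted p = 0.0148) and −0.25 in *Txnip*-/- mice (SE 0.12, limma adjusted p = 0.110). Relative to the median gene these differences were −0.60 and −0.40. The call in WT was lost without RT WT library 3 or TN WT library 1, where the differences were −0.27 and −0.33 (limma adjusted p = 0.0551 and 0.0566), and under median centring the difference in *Txnip*-/- mice of −0.44 was called as well (limma adjusted p = 0.0176). At TN *Thrsp* thus differed between genotypes in the direction opposite to *Dio2*, and in WT mice both were lower at TN than at RT.

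*Klf9* (NM_010638; mm10 chr19:23141226-23168128, plus strand) encodes a zinc finger transcription factor that responds to thyroid hormone and also to glucocorticoids. It held 60.4, 82.1 and 85.0 TPM in RT WT and 61.7, 91.0 and 84.9 TPM in RT *Txnip*-/-. At TN it held 60.3, 54.1 and 70.3 TPM in WT, against 53.0, 53.1 and 62.8 TPM in *Txnip*-/- mice. In each genotype library 1 of RT lay within the range of the TN libraries, and the genotypes overlapped at both temperatures. The difference between TN and RT was −0.47 in *Txnip*-/- mice (SE 0.16, limma adjusted p = 0.0294), or −0.62 relative to the median gene, and −0.29 in WT (limma adjusted p = 0.155), or −0.47. The call in *Txnip*-/- mice was lost without library 2 or 3 of RT or library 1 or 2 of TN (limma adjusted p from 0.0822 to 0.120) and when all genes with a TPM above 0 were tested (0.0502), and that in WT was made under median centring (limma adjusted p = 0.0471) and without RT WT library 1 (limma adjusted p = 0.0383). Between genotypes the log2 differences were 0.06 at RT, with a 95% interval from −0.36 to 0.47, and −0.12 at TN, with an interval from −0.38 to 0.13.

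**Figure D3:**
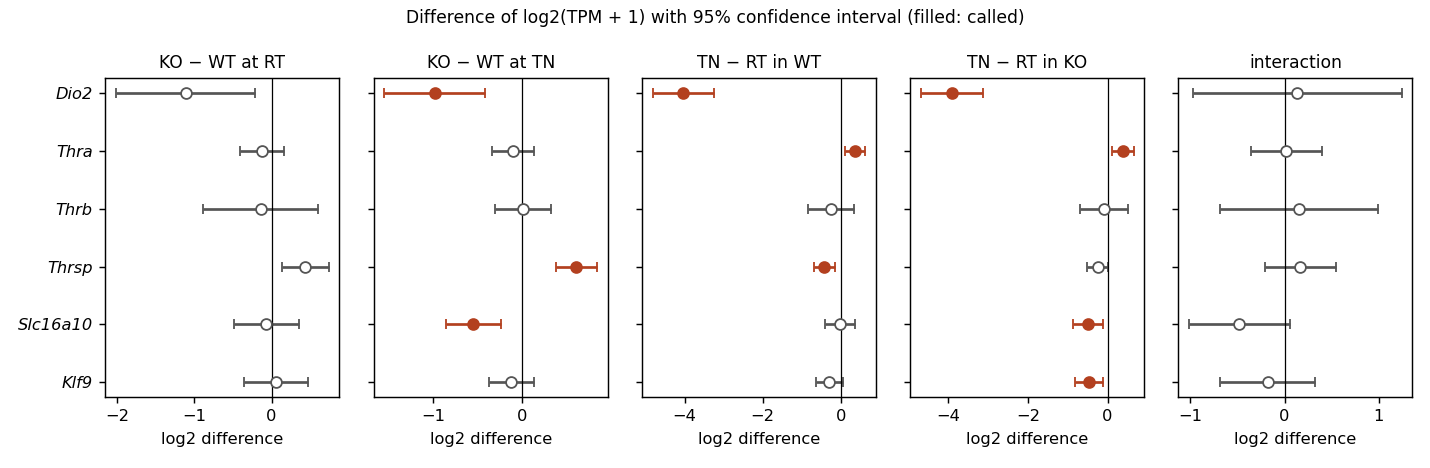
Difference in log2(TPM + 1) of each of the 6 genes in the 5 comparisons (horizontal axes, which differ in scale), with its 95% confidence interval from limma; filled red points were called, and KO stands for Txnip-/-. Dio2 lies near −4 in both temperature comparisons, and none of the 6 intervals of the interaction excludes 0.

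The genes around these 6 in the pathway were taken from lists, of which 70 genes are covered here, 59 of them tested. *Dio1* and *Dio3*, a second activating and the inactivating deiodinase, had at most 0.213 and 0.115 TPM in any library, so *Dio2* was the only deiodinase transcript with group means above 1 TPM. In TN *Txnip*-/- its mean of 1.06 TPM rested on library 3 (1.90 TPM), and libraries 1 and 2 lay under 1 TPM (0.710 and 0.571 TPM). The 4 binding proteins of the list, among them the intracellular *Crym* and the plasma carriers *Ttr* and *Alb*, were also under the filter, with group means of at most 0.300 TPM.

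Among the other transporter genes, *Slc3a2*, the heavy chain that brings amino acid carriers to the membrane, was lower at TN, with a log2 difference of −0.61 in WT (limma adjusted p = 0.00362) and of −0.45 in *Txnip*-/- mice (limma adjusted p = 0.0168). Its partner *Slc7a8* stood near the filter and was higher at TN by 0.62 in *Txnip*-/- mice, from 0.584 to 1.44 TPM (limma adjusted p = 0.0238), a call that upper-quartile scaling kept and median centring did not. In WT it averaged more, 1.99 TPM at RT and 2.43 TPM at TN, and the genotype difference was called at neither temperature (limma adjusted p = 0.128 and 0.0794).

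Among the receptors and their partners, *Rxrg* was lower at TN, by a log2 difference of −0.38 in WT (limma adjusted p = 0.0249) and of −0.48 in *Txnip*-/- mice (limma adjusted p = 0.00682), whereas *Rxrb* was not called. Of 14 coregulators none was called between genotypes, where 1.49% of all tested genes were called at RT and 8.66% at TN. None was called between temperatures in WT mice either, where 37.8% of all tested genes were. In *Txnip*-/- mice *Ncoa3* was higher at TN by 0.57 (limma adjusted p = 0.00189). *Ppargc1a*, the coactivator of mitochondrial and thermogenic genes, was lower there, from 32.4 to 7.05 TPM (−1.95, limma adjusted p = 0.000909), and in WT mice the difference of −0.86 (limma adjusted p = 0.0636) was called under upper-quartile scaling and median centring. Its difference between genotypes at TN, −0.72 (limma adjusted p = 0.0514), was called under median centring. The corepressor genes *Ncor1*, *Hdac3* and *Gps2* averaged between 21.7 and 45.0 TPM in the 4 groups and were not called.

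The DIO2 protein is removed by ubiquitination, and of 6 genes of that step 2 were called, both between temperatures in *Txnip*-/- mice, where 39.2% of all tested genes were called. *Wsb1*, which recognises DIO2 for a ubiquitin ligase, was higher at TN by 0.84 (limma adjusted p = 0.0051), and *Usp33*, which takes the ubiquitin off, was lower (−0.33, limma adjusted p = 0.0274). In WT mice neither was called without further scaling, but *Usp33* was called lower under median centring, and *Ube2g2*, the ubiquitin-conjugating enzyme of this step, under upper-quartile scaling and median centring. DIO2 also carries selenocysteine, and *Sephs2*, which makes the selenium donor for it, was lower at TN in both genotypes. *Sephs2* fell from 209 ± 9.005 to 109 ± 16.3 TPM in WT (SD, n = 3; −0.95, limma adjusted p = 0.000263) and from 233 ± 10.7 to 103 ± 19.2 TPM in *Txnip*-/- mice (−1.19, limma adjusted p = 3.87e-05). *Pstk*, of the same route, was higher at TN by 0.56 in WT (limma adjusted p = 0.000374) and *Sepsecs* lower in *Txnip*-/- mice (−0.37, limma adjusted p = 0.00255). In WT the difference in *Sepsecs* of −0.29 (limma adjusted p = 0.0101) fell short of the 20% required and was called under upper-quartile scaling and median centring. *Eefsec*, the elongation factor for selenocysteine, was higher at TN by 0.38 and 0.35 in the 2 genotypes, but neither call held under upper-quartile scaling or median centring.

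Of the genes upstream of *Dio2*, *Adrb3*, the main adrenergic receptor of brown adipocytes, was not called and averaged 99.9 and 86.4 TPM at RT in WT and *Txnip*-/- mice and 80.4 and 64.5 TPM at TN. *Creb1*, a factor that binds the cyclic AMP response element, was higher at TN by 0.40 in WT (limma adjusted p = 0.00295), a call that upper-quartile scaling and median centring did not keep. The macrophage markers moved with temperature as well, all 6 called higher at TN in both genotypes, with sums from 57.4 to 65.6 TPM in RT WT, 97.1 to 163 TPM in RT *Txnip*-/-, 128 to 229 TPM in TN WT and, highest, 367 to 517 TPM in TN *Txnip*-/-. The 4 fibroblast markers did the same, and all 10 of these markers were also called higher in *Txnip*-/- than in WT mice at TN, where 6.49% of all tested genes were. Of 5 white adipocyte markers 4 were called higher at TN in each genotype, with sums from 84.7 to 128 TPM over the RT libraries and from 211 to 302 TPM over the TN libraries. Of 4 endothelial markers 3 were called higher in WT and 4 in *Txnip*-/- mice, and of 3 tested lymphocyte markers 2 and 3. The counts between temperatures stand against 31.4% of all tested genes called higher in WT and 30.9% in *Txnip*-/- mice, and the endothelial medians of 0.40 and 0.69 against 0.18 and 0.15 for all genes. The part of these cells in the results was not tested.

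Of the 19 tested target genes of the hormone, more were called lower than higher at TN. The list was written with earlier results of these data known. Its counts, here and between genotypes, therefore describe these genes and are no test of hormone targets as a set. In WT mice 10 were called lower and 3 higher, with a median log2 difference of −0.42 against 0.18 for all tested genes, and in *Txnip*-/- mice 8 lower and 2 higher, with a median of −0.47 against 0.15. Over all tested genes 6.39% were called lower and 31.4% higher in WT, and 8.27% lower and 30.9% higher in *Txnip*-/- mice. Median centring gave 12 lower and 1 higher in each genotype. *Ucp1* fell from 3982 to 814 TPM in WT (−2.34, limma adjusted p = 0.000148) and from 3033 to 249 TPM in *Txnip*-/- mice (−3.64, limma adjusted p = 8.42e-06). *Ucp3*, its relative in muscle and brown fat, fell as well, with differences of −2.34 in WT and −0.91 in *Txnip*-/- mice, as did the glycolytic regulator *Pfkfb3* (−1.37 and −0.74). *Me1* and *Gpd2*, classic hormone-responsive enzymes of liver, were called lower at TN in both genotypes, with differences from −0.73 to −0.37, as was the calcium pump gene *Atp2a2* (−0.45 and −0.59). The exception in both was *Mid1ip1*, a paralogue of *Thrsp*, which was higher at TN by 1.52 in WT (limma adjusted p = 0.000162) and by 1.53 in *Txnip*-/- mice (limma adjusted p = 7.39e-05).

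In 1 genotype without further scaling, *Fasn*, *Hr* and *Bcl3* were called lower at TN in WT (−0.93, −0.80 and −0.96), and *Srebf1* and *Slc2a4* higher (0.77 and 0.35). In *Txnip*-/- mice *Atp2a1* was called lower (−1.48) and *Cpt1a* higher (0.37). All 5 tested skeletal muscle markers were called lower there as well, with a median log2 difference of −1.86. Several of them, and *Atp2a1* too, passed the filter only through RT *Txnip*-/-, the group where they are high, so this count was in part fixed by the filter. The part of muscle RNA in the fall of *Atp2a1* was not tested. Under median centring *Fasn* and *Hr* were called lower in *Txnip*-/- mice too. The calls of *Srebf1*, *Slc2a4* and *Cpt1a* were made with neither upper-quartile scaling nor median centring, and for none of these genes was the genotype difference shown to differ between temperatures.

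Between genotypes at TN, 5 of the 19 target genes were called higher in *Txnip*-/- mice and 1 lower, where 6.49% of all tested genes were called higher and 2.17% lower. *Thrsp* and *Mid1ip1* (0.68, limma adjusted p = 0.0378) rose together with *Mlxipl*, which codes for the glucose-responsive activator of fat synthesis ChREBP (0.71, limma adjusted p = 0.0228). *Ucp3* was higher by 1.17, from 23.2 to 53.8 TPM (limma adjusted p = 0.00351), and *Pfkfb3* by 0.44 (limma adjusted p = 0.0137). *Ucp1* was lower, from 814 to 249 TPM (−1.72, limma adjusted p = 0.0151). The fat synthesis genes *Fasn* and *Acaca* had higher means in *Txnip*-/- mice at both temperatures and were not called.

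At RT, *Atp2a1* was the only pathway gene called between genotypes, from 0.338 ± 0.0391 TPM in WT to 5.03 ± 2.36 TPM in *Txnip*-/- mice (SD, n = 3; 2.10, limma adjusted p = 0.0209). It codes for the calcium pump of fast skeletal muscle. *Atp2a1* lay under 1 TPM on average in RT WT and passed the filter only through RT *Txnip*-/-, where it is high. Its call was thus in part fixed by the filter. Over all 11980 genes tested at RT, 1.49% were called between genotypes. The 7 skeletal muscle markers summed to between 2.36 and 2.89 TPM in the RT WT libraries and between 17.9 and 43.6 TPM in RT *Txnip*-/-. All 5 that were tested were called higher there. Most of these averaged under 1 TPM in RT WT and passed the filter only through RT *Txnip*-/-, where they are high. The count of calls was thus in part fixed by the filter. The part of muscle RNA in the value of *Atp2a1* was not tested.

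Over all the lists, the calls among the 59 tested genes were 14 lower and 7 higher at TN in WT mice, where 37.8% of all tested genes were called, and 16 lower and 7 higher in *Txnip*-/- mice, where 39.2% were. The split moved with the scaling. Upper-quartile scaling gave 17 lower and 2 higher in WT and 16 lower and 4 higher in *Txnip*-/- mice, and median centring 20 lower and 2 higher and 22 lower and 3 higher. Between genotypes at TN the calls were 5 higher and 3 lower, where 6.49% of all tested genes were called higher and 2.17% lower. Under median centring they were 5 higher and 5 lower.

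**Figure D4:**
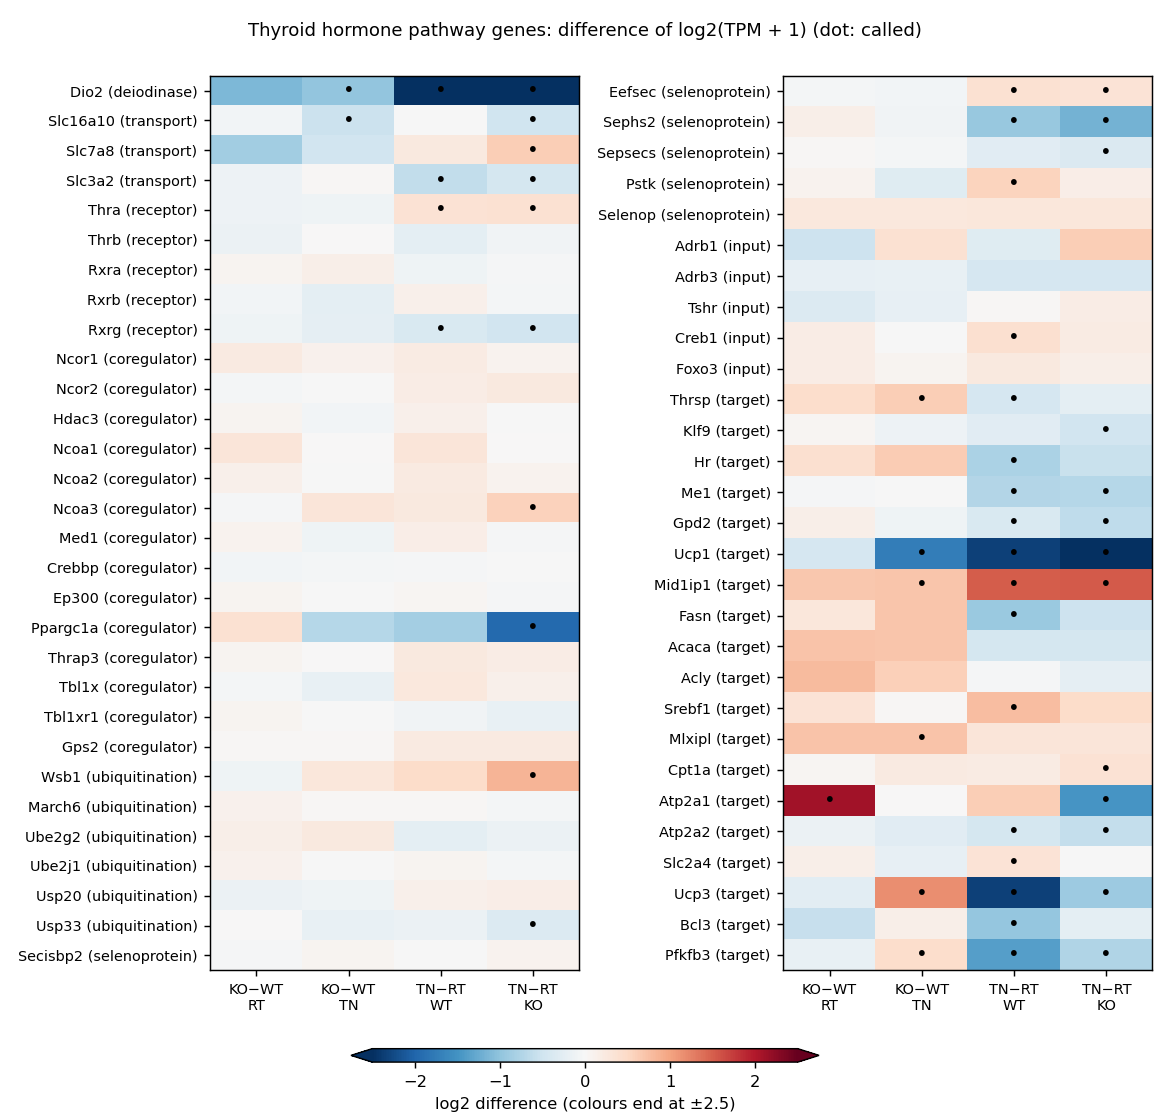
Difference in log2(TPM + 1) of 59 tested genes of the thyroid hormone pathway (rows, with the list of each in brackets) in the 4 pairwise comparisons (columns; KO stands for Txnip-/-), from blue (lower) to red (higher) with colours ending at ±2.5; a dot marks a called gene. Most dots lie in the temperature columns, as they do over all tested genes (37.8% and 39.2% called, against 1.49% and 8.66% between genotypes), with 14 genes lower and 7 higher at TN in WT and 16 lower and 7 higher in Txnip-/-, against 1 higher at RT and 5 higher and 3 lower at TN between genotypes.

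The genes whose levels were most like those of each member over the 12 libraries were found among 8902 genes with a mean of at least 5 TPM, as Pearson's r of log2(TPM + 1). The 12 points of *Dio2* fall into 6 RT and 6 TN libraries far apart, so r follows mainly that difference and is given as a description. Closest to *Dio2* were *Ankrd9* (0.990), *Pdp2* (0.983), *Wdr73* (0.981), *Pck1* (0.977) and *Naa30* (0.976). *Ankrd9* averaged 69.5, 49.5, 15.7 and 11.7 TPM in the 4 groups in the descending order of *Dio2*, and *Pck1*, the enzyme of glyceroneogenesis, 2750, 2436, 1037 and 659 TPM, which is the order of *Dio2* with smaller steps. Closest to *Thrsp* were *Fbp2* (0.961), *Prxl2a*, *H2-Q10*, *Acaca* (0.931) and *Pygl* (0.917). *Fbp2* averaged 21.2, 31.2, 14.0 and 26.6 TPM in the same order of groups, higher in *Txnip*-/- mice at each temperature as *Thrsp* was.

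For the other members the 5 closest genes were *Mmadhc* (0.941), *Atad3a*, *Mrm1*, *Mrpl3* and *Plbd1* (0.932) for *Slc16a10*, *Ctf1* (0.966), *Phc1*, *Rogdi*, *1810030O07Rik* and *Tbc1d2b* (0.935) for *Thra*, and *Ppp4r1* (0.962), *Txndc11*, *Plxna2*, *Qrich1* and *Gm16062* (0.935) for *Klf9*. *Thrb* had the lowest likeness of the 6, with *Chd1* (0.881), *Cdkn2aip*, *Rnft1*, *Ccnt1* and *Zbtb46* (0.837).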

How the data were processed

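Interscapular BAT of 4 groups with 3 libraries each was sequenced by the authors as poly-A selected single-end reads, aligned to mm10 with STAR 2.7.5a and counted on exons with HOMER 4.11.1, keeping 1 transcript per gene. The authors deposited TPM for all 12 libraries, of which the genes in the table hold from 55.4% to 57.6% of the full scale. Per temperature, the deposited tables also hold log2 (log-scale) values by a transform that is not named, the log2 fold change and p-value of the authors' DESeq2 comparison, neither of which was used, and a length in bases. Without counts for each gene the counting error is unknown, and no interval for it is given.

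Here, log2(TPM + 1) of genes that averaged at least 1 TPM was tested in R 4.3.3 with limma 3.58.1 (empirical Bayes with trend, Benjamini-Hochberg over all genes tested). Genotypes were compared on the 6 libraries of a temperature, and temperatures and the interaction on all 12 libraries with 4 group means. The pipeline was tested on simulated data. Python 3.11.15 with matplotlib 3.10.9 drew the figures. The 6 genes and all lists were chosen with earlier results of these data known. Some genes of the lists are not reported here and were left out of their counts. Genes named in the text are the 6 genes, *Txnip*, pathway genes called in any comparison or among the 3 most abundant of a list, and the 5 genes most like each of the 6. *Nr1d1*, *Noct*, the brown adipocyte markers named beside *Ucp1*, the thyroid follicle markers *Tg* and *Nkx2-1* and the untested pathway genes named with levels were added after their values were seen. Alternatives were log2(TPM + 0.1), no filter, upper-quartile scaling, the replicate number as a block, 1 fit of 12 libraries, the authors' log-scale values and each library left out in turn; median centring and the fit without both RT libraries numbered 3 were added after the data were seen.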

Additional observations from a re-analysis of the deposited data

How the results depend on the processing

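Of 463 values of the 6 genes under alternatives, 396 kept their direction and their side of the threshold, 36 lost and 5 gained a call, and 26 changed sign. The count of the 6 genes called between genotypes at RT was 0 and became 1 with the replicate block, which called *Dio2* (limma adjusted p = 0.0236); without 1 library it ranged from 0 to 1. Same-numbered RT libraries of the 2 genotypes deviated together with r of 0.30, −0.01 and 0.22 across genes, and TN libraries with 0.04, 0.02 and −0.03, so the numbers were not taken as pairs; the block lowered the calls over all genes at RT from 178 to 100 and at TN from 1116 to 977, and not every library was most like its own number. The count at TN was 3 and became 0 when all genes with a TPM above 0 were tested, where more genes enter the adjustment, and 1 in the fit of all 12 libraries, where the cause was not tested; without 1 library it ranged from 1 to 3. Between temperatures the count was 3 in WT, from 1 to 4 without 1 library, and 4 in *Txnip*-/- mice, from 1 to 4 without 1 library and 2 when all genes with a TPM above 0 were tested. Over all genes, the calls between genotypes at RT fell from 178 to 2 without RT WT library 2 and to 44 when all genes with a TPM above 0 were tested. Of values that no test called, the sign of *Thrb* at TN turned under median centring (−0.0227) and in the authors' log-scale values (−0.0037), and that of the *Dio2* interaction with log2(TPM + 0.1) (−0.40).

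Leaving out 1 library turned the sign of further values that no test called. Between genotypes at RT, *Thrb* ranged from −0.46 to 0.083, *Slc16a10* from −0.21 to 0.085 and *Klf9* from −0.10 to 0.23, and at TN *Thrb* from −0.13 to 0.14. Between temperatures, *Slc16a10* in WT ranged from −0.16 to 0.13 and *Thrb* in *Txnip*-/- mice from −0.29 to 0.16. The interaction ranged from −0.29 to 0.40 for *Dio2*, from −0.065 to 0.16 for *Thra* and from −0.070 to 0.48 for *Thrb*. Upper-quartile scaling and median centring moved the share of called genes that were higher in *Txnip*-/- mice from 51.1% to 41.8% and 43.7% at RT, and from 74.9% to 74.5% and 65.9% at TN; between temperatures upper-quartile scaling gave 70.4% and 68.8% higher at TN in WT and *Txnip*-/- mice.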
